A study of Mus musculus with 6 samples.

Results

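Polycomb repressive complexes 1 and 2 (PRC1 and PRC2) were described here through 10 of their genes: Ezh1, Ezh2, Eed, Suz12 and Jarid2 of PRC2, and Ring1, Rnf2, Bmi1, Cbx2 and Cbx7 of PRC1. The genes were chosen by the function of their products, as a list of symbols matched to Ensembl gene IDs, and all 10 were found among the 55487 genes of the count table and passed the filter on low counts. The libraries came from muscle stem cells, the resident precursors of regenerating muscle, taken from 10-week-old mice 60 h after injury with cardiotoxin (CTX), a venom toxin that destroys muscle fibres. The 3 knockout (KO) libraries came from mice labelled KO for Setdb1, which encodes a methyltransferase for H3K9, and treated with tamoxifen. The 3 control libraries came from mice labelled WT and treated with oil. Genotype and treatment thus changed together and cannot be told apart, and the driver of the recombinase is not given in the sources used here.

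PRC2 places methyl groups on H3K27, a mark of silenced developmental genes, through either of the paired catalytic subunits EZH1 and EZH2 held in a complex by EED and SUZ12. PRC1 adds ubiquitin to histone H2A through RING1 or RNF2, together with one of the PCGF subunits such as BMI1, and its canonical form reads the PRC2 mark through a CBX chromodomain protein. In muscle, EZH2 is known to be abundant in dividing stem cells and to decline on differentiation, and BMI1 is known for holding down the Cdkn2a locus in adult stem cells.

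The whole table gave totals of 4052569 to 5178823 counts in KO libraries and 4568845 to 5690844 in control libraries. Setdb1 itself was at 16.5, 12.7 and 14.7 CPM (counts scaled to library size, with TMM factors) in KO libraries, against 34.8, 40.5 and 32.1 CPM in control libraries, in the direction of the labels (adjusted p = 2.1e-04), while the deleted exon is not named. KO library 1 stood apart: it had at least 1 count in 30363 genes, against 18737 to 19951 in the other 5 libraries, and 1 ribosomal RNA gene took 38.4% of its counts, against 28.6% to 32.2%. It also had the lowest Suz12, Ezh2, Bmi1, Rnf2 and, by a narrow margin, Eed levels of the 6. Without it their log2 fold changes were -0.46, -0.36, -0.10, -0.18 and -0.45. All 10 markers of muscle stem cells, Pax7 included, were detected in every library, with a summed level of 1654 to 2096 CPM in KO and 1460 to 1544 CPM in control libraries. Of these 10, Myod1, a myogenic transcription factor of activated stem cells, was called higher (log2 fold change 1.04, adjusted p = 7.8e-04). It was at 361, 276 and 238 CPM in KO libraries and 141, 148 and 137 CPM in control libraries. So 1 of the 10 markers was called higher and 0 lower, beside 2.22% and 0.615% of all tested genes. At an unadjusted p under 0.05, 4 were higher and 1 lower, beside 10.1% and 7.64%. The markers had a median log2 fold change of 0.0865, with 6 positive and 4 negative values. The 8 fibro-adipogenic markers, also detected throughout, summed to 1535 to 2414 CPM in KO and 831 to 1856 CPM in control libraries. Of these, 7 were tested and 0 were called, with 7 positive and 0 negative log2 fold changes and a median of 0.495. Summed over 12 neutrophil markers, the level was 3.72, 896 and 293 CPM in KO libraries and 1.60, 3.34 and 2185 CPM in control libraries, so control library 3 and KO library 2 carried most of it. At 0 in at least 1 library were 11 of these 12, as were 4 of 9 macrophage, 3 of 6 endothelial and 5 of 6 lymphocyte markers. The part of these other cell types in the levels below was not tested.

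The promoters of Suz12, Ezh2 and Eed are shown. They were chosen as the PRC2 genes among the 10 that were lower in every KO library than in any control library. Each line gives the 250 bases before the RefSeq transcription start on build GRCm38.p6, 5′ to 3′ on the strand of the gene. Capitals mark the CCAAT box, read on either strand (CCAAT or ATTGG), and the E2F motif, read on both strands as TTTCGCGC, TTTGGCGC, TTTCCCGC or TTTGCCGC.
Suz12 (chr11:79992856-79993105, plus strand): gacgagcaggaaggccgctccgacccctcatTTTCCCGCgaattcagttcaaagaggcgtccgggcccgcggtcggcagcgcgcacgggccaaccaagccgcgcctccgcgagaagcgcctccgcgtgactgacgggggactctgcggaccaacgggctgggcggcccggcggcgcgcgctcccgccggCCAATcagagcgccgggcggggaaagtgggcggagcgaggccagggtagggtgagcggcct
Ezh2 (chr6:47595031-47595280, minus strand): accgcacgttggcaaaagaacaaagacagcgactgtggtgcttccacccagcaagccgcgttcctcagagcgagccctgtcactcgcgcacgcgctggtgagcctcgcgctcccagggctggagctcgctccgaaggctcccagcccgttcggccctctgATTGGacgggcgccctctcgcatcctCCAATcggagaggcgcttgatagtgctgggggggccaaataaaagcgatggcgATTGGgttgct
Eed (chr7:89980977-89981226, minus strand): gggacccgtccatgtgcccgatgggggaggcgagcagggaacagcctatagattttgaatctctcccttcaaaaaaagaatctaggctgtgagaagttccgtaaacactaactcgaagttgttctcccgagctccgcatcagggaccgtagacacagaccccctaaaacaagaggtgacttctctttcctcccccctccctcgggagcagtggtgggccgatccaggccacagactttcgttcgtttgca
The Suz12 promoter held a CCAAT box whose first base lay 61 bases before the start and an E2F match at 219 bases before it. The Ezh2 promoter held 3 CCAAT boxes in this stretch, beginning 90, 64 and 11 bases before the start, and an E2F match, TTTGGCGC, that began at base 4 after it. Eed had neither motif in the stretch shown and a single CCAAT box that began at base 26 after the start. The table of promoters held 9 of the 10 genes in 10 windows of 300 bases, and 2 of the 9 had an E2F match and 5 a CCAAT box. Rnf2 and Bmi1, whose groups were also apart and lower in KO libraries, had neither. Jarid2, which was higher in every KO library than in any control library, and Cbx7, whose groups overlapped, also held a CCAAT box. The same letters were found in 2.3% and 37.4% of the 32851 promoters in the table. Motifs of ETS and NRF1 transcription factors were also searched for, and 0 of the 9 genes had either. These ETS and NRF1 motifs were found in 8.9% and 1.0% of the 32851 promoters. The 300-base windows of Suz12, Ezh2 and Eed held 41, 31 and 17 CG dinucleotides, against a median of 7 over all promoters. Those of Ring1, Cbx7, Rnf2, Ezh1 and Bmi1 held 37, 33, 30, 23 and 23, and those of Jarid2 held 24 and 23.

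Among the core genes of PRC2, Suz12 fell in KO cells, and Ezh2 and Eed were lower in every KO library than in any control library without passing the test. The groups of Ezh1, the paralog of Ezh2, overlapped. Suz12 (ENSMUSG00000017548, chromosome 11, 79993106 to 80034123, plus strand, GRCm38), which encodes the scaffold subunit of PRC2, was measured at 75.0, 95.1 and 113 CPM in KO libraries and at 155, 146 and 128 CPM in control libraries. The groups did not overlap, KO library 1 was the lowest of the 6, and control library 3 was the lowest of its group. The mean was 94.2 ± 18.8 CPM in KO and 143 ± 13.6 CPM in control libraries (SD, n = 3 each). Its log2 fold change was -0.60 (standard error 0.15, 95% interval -0.91 to -0.29). With edgeR's quasi-likelihood test and Benjamini-Hochberg adjustment over 11224 genes the adjusted p was 0.0385. Suz12 alone of the 10 genes passed, so 1 was called lower and 0 higher, while 0.615% of all tested genes were called lower and 2.22% higher, 2.83% in all. The call held with DESeq2 (adjusted p = 0.034) and ended with limma-voom (adjusted p = 0.0732), with scaling by library totals alone (adjusted p = 0.0644) and without KO library 1 or 2 or control library 1 or 2 (adjusted p = 0.154, 0.138, 0.119 and 0.164). Without KO library 1, the log2 fold change was -0.46. The annotated RNA on the opposite strand, Gm26563, overlaps Suz12, which has 2.6% of its words (stretches of 50 bases of its transcripts) in other genes.

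**Figure D1:**
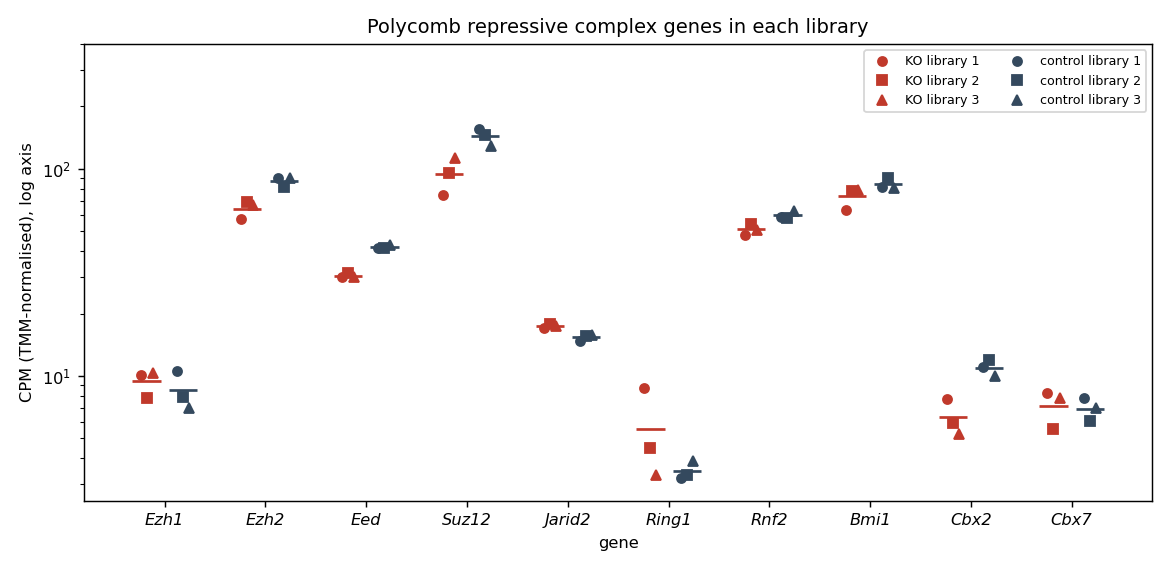
CPM (log axis) of the 10 Polycomb genes in each library, with KO libraries in red to the left of control libraries in grey and horizontal bars for group means of 3 libraries. Suz12, Ezh2, Eed, Rnf2, Bmi1 and Cbx2 sit lower in every KO library than in any control library, Jarid2 sits higher, and the groups of Ezh1, Ring1 and Cbx7 overlap.

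Ezh2 (ENSMUSG00000029687, chromosome 6, 47530139 to 47595341, minus strand), which encodes the catalytic subunit that predominates in dividing cells, had 56.9, 69.0 and 66.6 CPM in KO libraries and 90.1, 82.0 and 89.8 CPM in control libraries. The highest KO library lay below the lowest control library. The log2 fold change was -0.44 (standard error 0.12, 95% interval -0.69 to -0.19, adjusted p = 0.058), so that the level in KO cells was 73.6% of that in control cells. It passed under 1 of 16 alternative fits, with structural RNA and mitochondrial genes left out (adjusted p = 0.0427). Its adjusted p reached 0.189 over the 16. Eed (ENSMUSG00000030619, chromosome 7, 89954654 to 89980983, minus strand) encodes the subunit that binds the finished H3K27 mark and stimulates the enzyme. Its level was 30.1, 31.4 and 30.1 CPM in KO libraries against 41.5, 41.3 and 42.9 CPM in control libraries. Libraries of 1 group differed little: the SD was 0.775 CPM in KO and 0.846 CPM in control libraries, around means of 30.5 and 41.9 CPM. The log2 fold change of Eed was -0.46 (standard error 0.12, 95% interval -0.72 to -0.19, adjusted p = 0.064). An RNA on the opposite strand, E230029C05Rik, overlaps Eed, which has 5.8% of its words in other genes, and it had 10 counts in KO and 6 in control libraries, against 420 and 637 for Eed.

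Ezh1 (ENSMUSG00000006920, chromosome 11, 101191115 to 101226463, minus strand) encodes the catalytic subunit that persists in resting and differentiated cells. It was measured at 10.1, 7.80 and 10.4 CPM in KO libraries and at 10.6, 7.93 and 7.02 CPM in control libraries, and the groups overlapped. The log2 fold change was 0.14 with a 95% interval of -0.36 to 0.65 (adjusted p = 0.796). Ezh1 was sequenced with 258 counts over all 6 libraries, against 2220 for Ezh2 and 3490 for Suz12, so its difference is known less precisely.

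Jarid2 (ENSMUSG00000038518, chromosome 13, 44729474 to 44921643, plus strand) encodes an accessory subunit that helps to place PRC2 on its targets. Its level was 17.0, 17.9 and 17.4 CPM in KO libraries against 14.8, 15.7 and 15.7 CPM in control libraries. All KO libraries lay above all control libraries, but the distance was small and did not pass the test (log2 fold change 0.18, 95% interval -0.15 to 0.51, adjusted p = 0.585). Per kilobase of exon, the Jarid2 level was 0.097 ± 0.018 of the Suz12 level in KO libraries and 0.055 ± 0.0068 in control libraries (SD, n = 3 each).

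**Figure D2:**
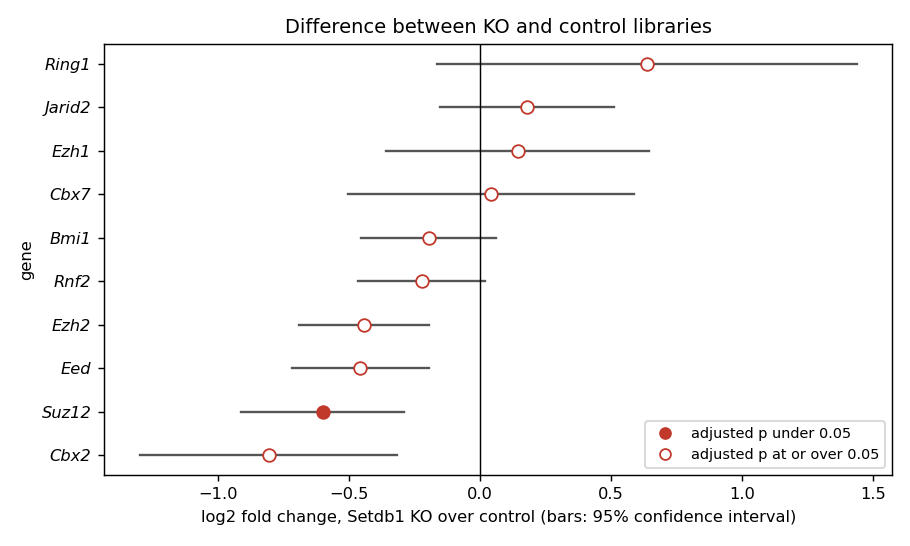
Log2 fold change of each gene, Setdb1 KO over control, with its 95% confidence interval from the edgeR fit, and a filled point for an adjusted p under 0.05. Suz12 at -0.60 is the filled point, the intervals of Cbx2, Eed and Ezh2 lie below 0 while their adjusted p-values are over 0.05, and the interval of Ring1 is the widest.

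The PRC1 genes gave no call. Rnf2 (ENSMUSG00000026484, chromosome 1, 151458004 to 151500955, minus strand), which encodes the more active ubiquitin ligase of PRC1, had 48.1, 54.4 and 50.6 CPM in KO libraries and 58.3, 58.0 and 62.6 CPM in control libraries. Its groups did not overlap, and the log2 fold change was -0.22 (95% interval -0.46 to 0.02, adjusted p = 0.324). Trmt1l overlaps it on the opposite strand and had 183 counts in KO and 222 in control libraries, against 705 and 908 for Rnf2. Its paralog Ring1 (ENSMUSG00000024325, chromosome 17, 34020792 to 34024680, minus strand) was at 8.78, 4.52 and 3.32 CPM in KO libraries and 3.20, 3.34 and 3.88 CPM in control libraries. KO library 1 was far above the other 5, which lay between 3.20 and 4.52 CPM. The log2 fold change of 0.64 (95% interval -0.17 to 1.44, adjusted p = 0.398) was 0.17 without KO library 1, so that library sets most of its size. Ring1 rested on 125 counts in all, the fewest of the 10 genes.

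Bmi1 (ENSMUSG00000026739, chromosome 2, 18677018 to 18686629, plus strand), a PCGF subunit that completes the ligase and is known for keeping adult stem cells from senescence, had 63.3, 78.0 and 79.3 CPM in KO libraries and 81.7, 90.6 and 81.1 CPM in control libraries. The highest KO value lay just under the lowest control value. The log2 fold change was -0.20 (95% interval -0.45 to 0.06, adjusted p = 0.418). A processed pseudogene, Gm5946, is the gene with the most words in common with Bmi1, 16.7% of whose words occur in other genes, and it had 3 counts in KO and 1 in control libraries, against 1024 and 1281 for Bmi1.

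Cbx2 (ENSMUSG00000025577, chromosome 11, 119022962 to 119031270, plus strand), which encodes a chromodomain protein of canonical PRC1 that compacts chromatin, had the most negative fold change of the 10 genes. It was measured at 7.71, 5.95 and 5.28 CPM in KO libraries and at 11, 11.9 and 9.98 CPM in control libraries, and the groups did not overlap. The level in KO cells was 57.2% of that in control cells (log2 fold change -0.81, standard error 0.23, 95% interval -1.30 to -0.32), with an adjusted p of 0.078 on 251 counts. It passed under 1 of 16 alternative fits (log2 fold change -1.03, adjusted p = 0.0496). That fit, without KO library 1 and control library 3 together, was chosen after seeing the data. With DESeq2 the adjusted p of Cbx2 was 0.52. Its neighbour Cbx8 (119036305 to 119040969) had 11 counts in KO and 13 in control libraries and was not tested.

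Cbx7 (ENSMUSG00000053411, chromosome 15, 79915807 to 79971119, minus strand) encodes a chromodomain protein known from stem cells. Its level was 8.25, 5.54 and 7.82 CPM in KO libraries and 7.81, 6.05 and 7.02 CPM in control libraries. Its groups overlapped, the log2 fold change was 0.04 (95% interval -0.50 to 0.59, adjusted p = 0.954), and its sign was negative under 6 of 16 alternatives. Apobec3, on the opposite strand, overlaps its exons and had 611 counts in KO and 463 in control libraries, against 98 and 106 for Cbx7, of whose words 0.8% occur in other genes. The strand setting of the counting is not given in the sources used here, so reads of such overlapping pairs cannot be told apart.

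Over the 10 genes, 6 were lower and 1 higher in every KO library than in any control library. Of all tested genes, 11.5% were lower and 12.8% higher by that rule, 24.3% in all. At an unadjusted p under 0.05, 4 of the 10 were lower and 0 higher, against 7.64% lower and 10.1% higher of all tested genes. The median log2 fold change of the 10 was -0.21, beside 0.0074 over all tested genes. In bulk samples, fewer cells expressing a gene and less RNA per cell cannot be told apart.

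Levels were compared between genes per kilobase of merged exons. In control libraries the order was Suz12 (29.0 ± 2.74 CPM per kilobase), Bmi1 (21.3 ± 1.3), Rnf2 (14.5 ± 0.63), Ezh2 (13.1 ± 0.68), Eed (10.9 ± 0.22), Cbx2 (2.58 ± 0.23), Jarid2 (1.58 ± 0.051), Ezh1 (1.15 ± 0.25), Cbx7 (1.07 ± 0.14) and Ring1 (1.07 ± 0.11), each as mean ± SD of 3 libraries. The last 3 did not differ beyond their spread. The 5 most abundant lay above the median of all tested genes, which was 4.02 CPM per kilobase in control libraries, and the other 5 below it. In KO libraries Suz12 and Bmi1 stood at 19.1 ± 3.80 and 18.5 ± 2.24 CPM per kilobase and could not be ordered, nor could Jarid2 (1.79 ± 0.043) and Cbx2 (1.48 ± 0.30). The ratio of Eed to Ezh2 per kilobase was 0.834 ± 0.075 in KO and 0.838 ± 0.039 in control libraries.

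Paralogs were also set side by side as shares of their summed level. Ezh1 made up 13.8%, 9.22% and 12.2% of the summed Ezh1 and Ezh2 level per kilobase in KO libraries and 9.56%, 7.99% and 6.56% in control libraries, so Ezh2 transcripts predominated in all 6 libraries. The 2 groups overlapped. Ring1 made up 18.8%, 9.56% and 7.71% of the summed Ring1 and Rnf2 level in KO libraries and 6.54%, 6.82% and 7.31% in control libraries, with KO library 1 far above the rest and no overlap of the groups. Among the 5 CBX genes of PRC1, Cbx2 held 34.5%, 32.0% and 29.4% in KO libraries and 39.6%, 44.2% and 37.9% in control libraries, and these groups did not overlap. Cbx7 held 24.2%, 19.6% and 28.6% in KO libraries and 18.4%, 14.8% and 17.5% in control libraries, also without overlap. Since shares of a set sum to a fixed total, a lower share of Cbx2 raises the others by arithmetic. Bmi1 was the main form of the 6 PCGF genes, at 56.2 ± 4.8% in KO and 57.3 ± 1.89% in control libraries (SD, n = 3 each). These shares are a description without a test.

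**Figure D3:**
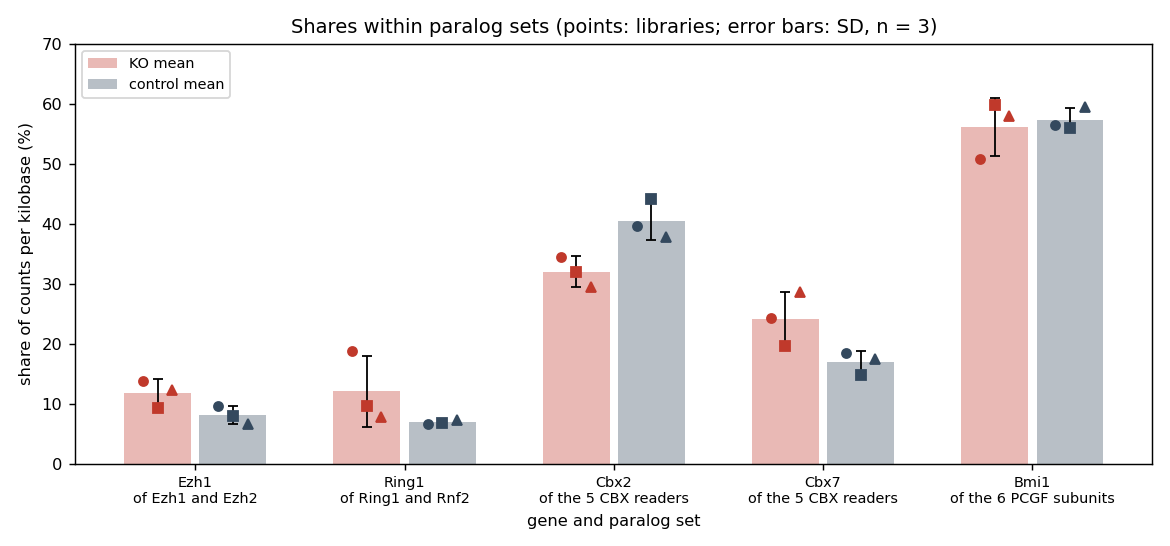
Share of each gene in the summed level per kilobase of its paralog set, with KO bars left of control bars, points for libraries and error bars for the SD of 3 libraries. Cbx2 averages 32.0% in KO and 40.6% in control libraries, the highest Ring1 point is KO library 1 at 18.8%, and Bmi1 averages 56.2% in KO and 57.3% in control libraries.

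The wider Polycomb system was read from 10 lists by role, which hold 70 genes including the 10 above. Of these, 65 were tested, 1 was lower (Suz12) and 0 were higher in KO cells. The median log2 fold change was -0.14, with 51 negative and 14 positive values, and 22 genes were lower and 4 higher without overlap of the groups, beside the 11.5% and 12.8% of all tested genes given above. Without the 10 genes, 55 were tested and none passed with edgeR, DESeq2 or limma-voom. Of these 55, 12 were lower and 3 higher at an unadjusted p under 0.05, beside 7.64% and 10.1% of all tested genes.

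In the PRC2 core, the histone-binding partners Rbbp4 and Rbbp7, which also serve other complexes, were at 199 ± 6.96 and 176 ± 24.4 CPM in KO libraries and at 237 ± 8.87 and 209 ± 4.11 CPM in control libraries (adjusted p = 0.251 and 0.313). Both genes were lower in every KO library than in any control library. Of their words 17.2% and 11.2% occur in other genes, and both were named outside the rule for named genes, after their values were seen. Of 7 tested accessory genes none passed, while Mtf2 was lower and Jarid2 higher in every KO library than in any control library. Mtf2, whose product recruits PRC2 to CG-rich DNA, was at 27 ± 2.76 CPM in KO and 38.4 ± 3.97 CPM in control libraries (log2 fold change -0.50, adjusted p = 0.071), and Tmed5 overlaps it on the opposite strand, with 1230 counts in KO and 1265 in control libraries, against 375 and 582 for Mtf2. Aebp2, which marks another form of PRC2, was at 82.3 ± 14.1 and 85.6 ± 5.53 CPM in KO and control libraries (adjusted p = 0.876).

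In PRC1, none of the 6 PCGF genes, 4 tested CBX genes, 6 other canonical genes or 19 genes of variant PRC1 passed. Pcgf3, of a variant PRC1, had 68.7 ± 5.37 CPM in KO and 72.1 ± 12.9 CPM in control libraries. Cbx6 had 9.80 ± 0.50 CPM in KO and 13.5 ± 3.57 CPM in control libraries (adjusted p = 0.268). The polyhomeotic genes Phc1 and Phc2, whose products join canonical PRC1 complexes into larger assemblies, had log2 fold changes of -0.13 and 0.04. Skp1a, an adaptor of the KDM2B complex, had -0.07, and Tfdp1, the E2F partner found in the complex with PCGF6, had -0.36 (adjusted p = 0.805 and 0.102), and 16.8% of the words of Tfdp1 occur in other genes.

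Genes that act beside or against Polycomb also gave no call. Among 4 tested PHO-RC and MBT genes, Yy1 had 74.0 ± 1.00 CPM in KO and 82.5 ± 3.44 CPM in control libraries and Sfmbt1 19.7 ± 1.62 and 25.6 ± 3.26 CPM (adjusted p = 0.47 and 0.22). L3mbtl3, which encodes a reader of methylated lysines and was named after its values were seen, was at 24.2, 22.2 and 21.9 CPM in KO libraries against 14.4, 15.2 and 16.1 CPM in control libraries. The groups were apart, with an adjusted p of 0.058 that became 0.0476 when structural RNA and mitochondrial genes were left out. Under the other 15 alternatives L3mbtl3 did not pass, with an adjusted p of up to 0.579 (DESeq2). Of 8 tested genes for removal of H2A ubiquitin, Foxk2 and Asxl1 had log2 fold changes of -0.14 and -0.15. The H3K27 demethylase genes Kdm6a and Kdm6b had -0.17 and -0.01 (adjusted p = 0.54 and 0.988).

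**Figure D4:**
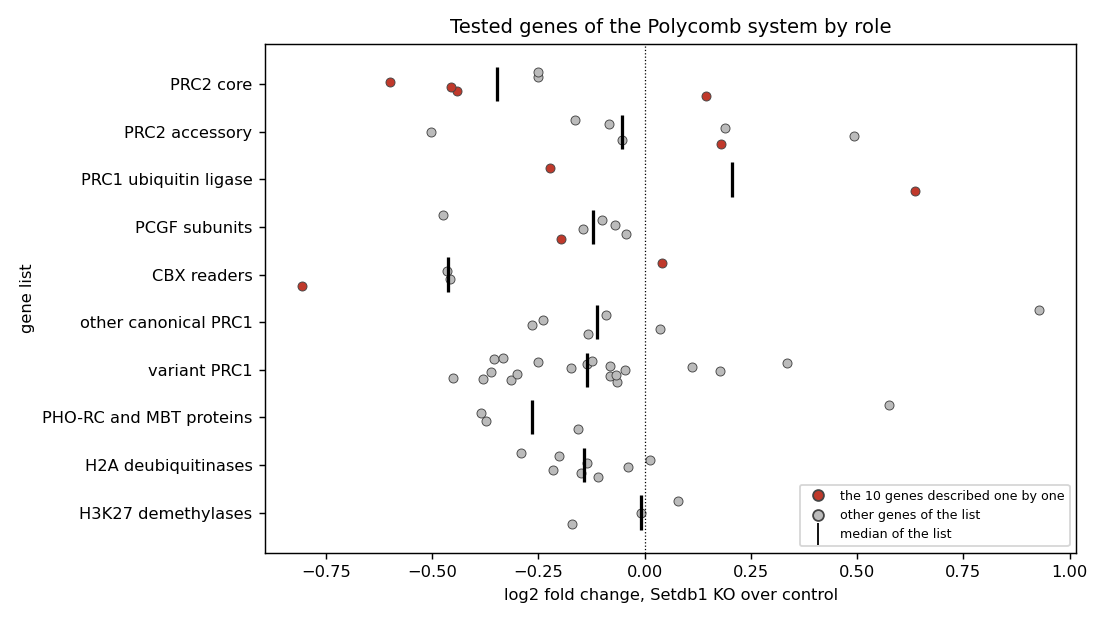
Log2 fold change, Setdb1 KO over control, of the 65 tested genes of the Polycomb system in 10 lists by role, with a vertical bar for the median of each list. The medians of the PRC2 core (-0.35) and the CBX genes (-0.46) lie farthest below 0, and Suz12 at -0.60 is the only gene of these lists with an adjusted p under 0.05.

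Genes known as Polycomb targets mostly had too few counts in both groups to be tested, and none that was tested passed with edgeR, DESeq2 or limma-voom. Of the 39 clustered Hox genes, 31 did not reach the filter on low counts, nor did 35 of 40 other developmental regulators. At an unadjusted p under 0.05, 4 of the 8 tested Hox genes were lower and 0 higher, and 0 of the 5 tested developmental regulators differed, beside 7.64% lower and 10.1% higher of all tested genes. By level, Hoxc10 had 7.11 ± 0.25 CPM in KO and 8.57 ± 1.43 CPM in control libraries, and Hoxc11 4.83 ± 0.29 and 7.99 ± 2.78 CPM (adjusted p = 0.591 and 0.223). En1 and Tbx3 had log2 fold changes of -0.10 and -0.31 (adjusted p = 0.899 and 0.459). Cdkn2a, which encodes cell cycle inhibitors held down by BMI1, was at 2.93, 1.44 and 2.15 CPM in KO libraries and 2.60, 2.09 and 2.40 CPM in control libraries. Its groups overlapped, with a 95% interval for the log2 fold change of -1.05 to 0.76 (adjusted p = 0.897), and its neighbour Cdkn2b had 17 counts in KO and 11 in control libraries. Of the muscle genes known as targets of EZH2, Myog was at 9.31, 5.54 and 5.08 CPM in KO libraries and 4.21, 5.22 and 2.22 CPM in control libraries (adjusted p = 0.288), and its groups overlapped. Pax7 had a log2 fold change of -0.01 (adjusted p = 0.986), and Ckm and Myh4 were below the filter.

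Genes of DNA synthesis were read beside the PRC2 core, since their summed level was lower in all KO libraries. The summed level of 46 S phase genes was 2403, 2675 and 2674 CPM in KO libraries and 3260, 3331 and 3230 CPM in control libraries, and these sums did not overlap between groups. Of the 46, 3 were lower and 0 higher (Tk1, Mcm10 and Mcm7, adjusted p = 0.0341, 0.0358 and 0.0445), beside 0.615% and 2.22% of all tested genes. DESeq2 called 1 lower and limma-voom 0. The median log2 fold change was -0.34. Without overlap of the groups, 32 of the 46 were lower and 0 higher, beside 11.5% and 12.8% of all tested genes. At an unadjusted p under 0.05, 26 were lower and 0 higher, beside 7.64% and 10.1% of all tested genes. Divided by this sum, Ezh2 was at 24.8 ± 1.06 in KO and 26.7 ± 1.79 in control libraries (CPM per 1000 CPM of S phase genes; SD, n = 3 each), with overlapping groups. Suz12 was at 36.3 ± 5.48 in KO and 43.7 ± 3.90 in control libraries on that scale, also with overlap, and Eed at 11.8 ± 0.63 and 12.8 ± 0.44, with 1 KO library inside the range of the control libraries. Because the sum was lower in every KO library, dividing by it narrows these differences by arithmetic, so the overlaps are only a description. The part of the S phase difference in the levels of PRC2 genes was not tested.

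**Figure D5:**
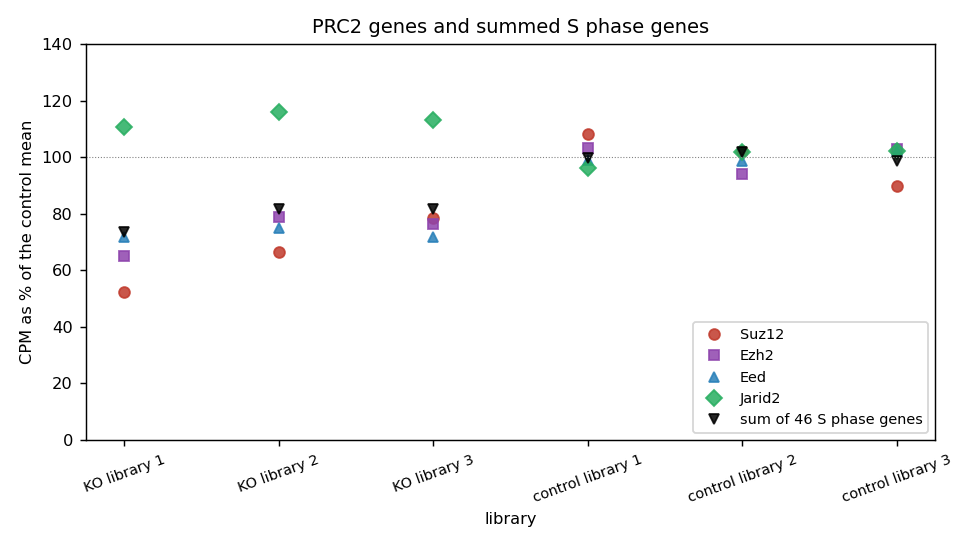
CPM of Suz12, Ezh2, Eed and Jarid2 and of the sum of 46 S phase genes in each library, as a percentage of the mean of the 3 control libraries. In KO libraries Suz12, Ezh2, Eed and the S phase sum lie between 52.4% and 81.7%, and Jarid2 lies between 110.6% and 116.1%.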

How the data were processed

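RNA was sequenced from 3 KO and 3 control libraries. Per the labels' protocols, libraries were made from 400 ng of RNA after ribosomal depletion and read as pairs of 75 bases. A stranded total RNA kit and a SMARTER mRNA kit are both named there, which leaves the kit of these libraries unsettled. The submitters' processing notes list STAR, Salmon, DESeq2 1.34.0 and GRCm38 without roles. For strand and annotation, the setting used was not given in the sources used here. What the authors deposited is 1 table of counts, whole numbers for each Ensembl gene without normalisation. Symbols were matched for 55141 of 55487 genes, and positions and exon lengths come from GENCODE M21 (GRCm38).

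Counts were tested with edgeR 4.0.16 in R 4.3.3 (TMM factors, default low-count filter, quasi-likelihood test with robust dispersion, two-sided), adjusted over the 11224 genes kept, with a threshold of 0.05. Standard errors were computed from F statistics, and 95% intervals use the t quantile of the fit. The procedure was tested on simulated data. CPM are scaled by TMM. Alternatives were other scalings and filters, DESeq2 1.42.0, limma-voom (limma 3.58.1), the replicate number as a block, structural RNA genes left out and each library left out. Words are 50-base stretches of annotated transcripts. The labels call libraries of a group biological replicates, and no pair in a group agreed within sampling noise. No molecular identifiers are named, so counts need not be independent molecules.

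The 10 genes, all lists and alternatives were chosen with earlier results of these data known. Named genes were the 10, Setdb1, the passing genes of each list (at most 4) or else the 2 with the highest level per length, and the 5 genes most alike to Ezh1 and to Ezh2. Python 3.11.15, pandas 2.3.3 and matplotlib 3.10.9 were also used. Not every listed gene is reported here.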

Additional observations from a re-analysis of the deposited data

How the results depend on the processing

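The count of the 10 genes called lower, 1 in the fit reported, was 0 with library totals alone, limma-voom and the replicate block, ranged from 0 to 1 when 1 library was left out, and was 2 with structural RNA and mitochondrial genes left out (Suz12 and Ezh2) and without KO library 1 and control library 3 together (Suz12 and Cbx2). The same values hold for the 70 genes of the wider lists, where the count called higher was 1 (L3mbtl3) with structural RNA and mitochondrial genes left out and 0 under the other 15 alternatives. None of the 10 genes was called higher under any of the 16 alternatives. The log2 fold change of Suz12 ran from -0.76 to -0.46 over them, with adjusted p from 0.0035 to 0.164, and it passed under 9. Those of Ezh2 (-0.51 to -0.35), Eed (-0.52 to -0.43) and Cbx2 (-1.03 to -0.70) kept their sign under all 16. The adjusted p of these 3 genes ran from 0.0427 to 0.189, 0.0537 to 0.366 and 0.0496 to 0.52. They passed under 1, 0 and 1 of the 16. Cbx7 was negative under 6, at -0.028 with library totals alone, -0.0015 with no low-count filter, -0.054 without KO library 1 and control library 3 together, where Ezh1 was also negative (-0.032), and in 3 of the 6 fits without 1 library, which ran from -0.058 to 0.20. The cause of these changes was not tested. With structural RNA left out or fewer libraries, fewer or other genes and samples entered the fit. Using the longest transcript as length, Ezh1 made up 8.94% of Ezh1 and Ezh2 in KO and 6.06% in control libraries, Bmi1 48.9% of the PCGF genes in KO and 49.8% in control libraries, and Cbx6 24.1% of the CBX genes in KO libraries, and TPM left shares as they were.

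The replicate numbers did not pair the libraries: deviations from the group means of KO and control libraries with the same number had correlations of 0.142, -0.0925 and -0.0615 across genes. With the replicate block, Suz12 had a log2 fold change of -0.61 (adjusted p = 0.081), and 206 genes were higher and 41 lower over the table, against 249 and 69 in the fit reported. These were 147 and 37 with DESeq2, 166 and 34 with limma-voom, 373 and 138 with no low-count filter, 288 and 106 without KO library 1 and control library 3 together, and 133 to 255 and 15 to 90 without 1 library. Depth limits Ring1, Cbx7, Cbx2 and Ezh1 most, with 125 to 258 counts each over 6 libraries.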

Other observations

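The genes whose profile over the 6 libraries was most like that of Ezh2 were Chaf1a, Rcbtb2, Arglu1, Mthfd1 and Mcm7, by the root mean square distance of log2(CPM + 1), centred on each gene's mean (0.039 to 0.050). Chaf1a encodes a chromatin assembly factor subunit used at replication forks, Mcm7 a subunit of the replicative helicase and Mthfd1 an enzyme of folate metabolism. Chaf1a and Mcm7 are on the list of S phase genes used above, while Rcbtb2, Arglu1 and Mthfd1 are not. The log2 fold changes of the 5, in the order first given, were -0.45, -0.44, -0.43, -0.36 and -0.45, and only Mcm7 passed the test (adjusted p = 0.0445). Genes picked by this distance have fold changes near that of the gene they are matched to by selection. On the same measure, Eed lay 0.082 from Ezh2, Rnf2 0.125, Bmi1 0.155 and Suz12 0.17, and Ezh1 lay 0.374 from it. The genes most like Ezh1 were Atg9a, Setd7, Nr1d1, Helz and Ncam1 (0.043 to 0.051), none of which passed (adjusted p = 0.541 to 0.756), and Cbx7 was the nearest of the other 9 Polycomb genes, at 0.143.

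The Trithorax group, whose methyltransferases of the KMT2 family act against Polycomb silencing, was measured with 14 genes, and none passed in either direction with edgeR, DESeq2 or limma-voom, while 3 were lower and 0 higher at an unadjusted p under 0.05, beside 7.64% and 10.1% of all tested genes. The median log2 fold change was -0.19. Hcfc1 had 146 ± 10.1 CPM in KO and 170 ± 14.7 CPM in control libraries, and Dpy30 30.4 ± 3.54 and 36.1 ± 4.52 CPM (SD, n = 3 each; adjusted p = 0.353 and 0.401).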
